A study of Mus musculus with 10 samples.

Results

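A set of 44 mouse genes of mitosis and chromosome segregation was followed across 5 populations of the intestinal epithelium. The set was chosen by function and runs from the cyclins and kinases that start mitosis to the kinetochore, spindle, checkpoint, condensin and cytokinesis genes. Of the 44 genes, 42 were measured, out of 12393 genes on the array. Ccnb1 and Espl1 were not analysed here. A gene counted as measured when a probe set named that gene and no other, and where several did, the brightest on average over the 10 arrays stood for the gene. Of the members, 22 had 1 probe set and 20 had several, 74 probe sets in all.

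Mitosis begins when Cdk1 bound to cyclin B is switched on by Cdc25 phosphatases, with Plk1 and the Aurora kinases driving spindle assembly. Kinetochores then tie chromosomes to spindle microtubules, and the checkpoint (Bub1, Bub1b, Bub3, Mad2l1, Ttk) restrains the anaphase promoting complex until every chromosome is attached. In the small intestine, dividing cells lie in the crypts, where Lgr5-positive stem cells and their progenitors cycle, and cells on the villi have left the cell cycle. Many of these genes are transcribed late in the cell cycle, through promoters with CCAAT boxes, which NF-Y binds, and cell cycle homology elements (TTTGAA or TTTAAA), which the MuvB complex binds.

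Each population was hybridised to 2 Affymetrix mouse 430A 2.0 arrays, with total RNA from C57BL/6 mice. Stem cells (ISC) were sorted by green fluorescent protein from Lgr5-eGFP-Cre mice. Secretory progenitors of the crypt came from mice with Rbpj, the DNA-binding partner of Notch, deleted (Rbpj Sec-Pro), or from mice given dibenzazepine, which inhibits Notch (DBZ Sec-Pro). Enterocyte progenitors of the crypt (Ent-Pro) and villus enterocytes (ENT) both came from Atoh1-/- mice, which have no secretory cells, so neither group is an absorptive lineage of normal mice. ISC was thus a sorted fraction, and the other 4 groups were epithelium released with 5 mM EDTA, over 50 min for crypts after the villi had been removed by hand and over 25 min for villi. The ages of the mice, the dose of dibenzazepine and the drivers of the Rbpj and Atoh1 deletions are not given in the sources used here. In such bulk samples, fewer dividing cells and less of each RNA per dividing cell cannot be told apart. Whether both arrays of a group stem from different mice is not given, so the p-values rest on a spread between samples that may be technical.

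All values below are log2 intensities as deposited, with array medians from 6.83 to 6.98. Members ranged from 5.40 (Cenph in ENT) to 12.54 (Mki67 in ISC), above the highest reading of the absent control TrpnX, 4.05. Atoh1 read 5.75 and 5.78 in Ent-Pro and 4.97 and 5.18 in ENT, against 7.68 to 11.85 on the other arrays, and Rbpj read 6.74 and 6.62 in Rbpj Sec-Pro, against 7.0 to 8.31 elsewhere. The mean of 10 stem cell markers was 10.38 and 10.18 in ISC and 7.20 to 8.83 elsewhere, that of 11 secretory markers was 10.33 to 11.61 in the Sec-Pro arrays and 6.05 to 8.74 elsewhere, and that of 9 epithelial markers was 12.54 to 12.80 on all arrays, with 16 stromal markers at 5.17 to 5.70. The mean of 12 enterocyte markers was 9.50 and 9.66 in ISC and 11.63 to 13.17 in the other groups, the Sec-Pro arrays included. The mean of 23 leukocyte markers was 7.24 and 7.93 in DBZ Sec-Pro, 8.33 and 6.66 in Rbpj Sec-Pro, 7.26 and 7.38 in ENT, 6.38 and 6.34 in Ent-Pro and 6.02 and 6.21 in ISC.

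As most members moved together across the groups, the letters before the transcription start are shown for 6 of them: windows with CCAAT and TTTGAA, with CCAAT alone and with neither. RefSeq promoter windows (GRCm38.p6) running from 250 bases before to 50 bases after the start were at hand for 35 of the 42 members. Those not matched were Aurkb, Ccna2, Cdc25c, Incenp, Kif20a, Smc4 and Tpx2. The 250 bases before the start are printed 5′ to 3′ on the gene's strand, with motif matches in capitals. CCAAT boxes were searched on both strands, so that some read ATTGG. The element TTTGAA was searched likewise and can appear as TTCAAA, whereas TTTAAA is the same on either strand. The window of Cdk1 lies at chr10:69352913-69353162 (minus strand), Ccnb2 at chr9:70421555-70421804 (minus strand), Cdc20 at chr4:118437344-118437593 (minus strand), Ube2c at chr2:164769679-164769928 (plus strand), Bub1 at chr2:127831860-127832109 (minus strand) and Mad2l1 at chr6:66534971-66535220 (plus strand). The first 4 carry both kinds of motif in the whole window, Bub1 carries CCAAT alone and Mad2l1 carries none of the motifs.
Cdk1: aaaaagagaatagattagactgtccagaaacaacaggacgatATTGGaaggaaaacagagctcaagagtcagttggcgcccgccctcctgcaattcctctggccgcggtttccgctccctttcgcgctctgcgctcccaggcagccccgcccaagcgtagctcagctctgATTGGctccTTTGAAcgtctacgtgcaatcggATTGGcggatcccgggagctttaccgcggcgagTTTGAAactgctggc
Ccnb2: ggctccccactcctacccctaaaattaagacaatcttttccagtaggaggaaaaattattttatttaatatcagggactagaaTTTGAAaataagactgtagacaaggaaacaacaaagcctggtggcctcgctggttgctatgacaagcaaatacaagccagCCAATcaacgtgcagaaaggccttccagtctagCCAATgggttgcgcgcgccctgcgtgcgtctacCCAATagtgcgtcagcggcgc
Cdc20: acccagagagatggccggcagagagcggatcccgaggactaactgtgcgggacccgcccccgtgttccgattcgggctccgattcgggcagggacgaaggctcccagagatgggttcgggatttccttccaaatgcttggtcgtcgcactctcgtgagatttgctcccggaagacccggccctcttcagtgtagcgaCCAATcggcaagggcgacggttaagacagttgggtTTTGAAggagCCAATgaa
Ube2c: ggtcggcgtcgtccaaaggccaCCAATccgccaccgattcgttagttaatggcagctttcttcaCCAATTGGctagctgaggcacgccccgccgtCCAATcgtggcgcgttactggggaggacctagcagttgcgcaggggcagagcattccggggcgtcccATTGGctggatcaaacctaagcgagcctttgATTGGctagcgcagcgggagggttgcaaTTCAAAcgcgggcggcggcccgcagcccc
Bub1: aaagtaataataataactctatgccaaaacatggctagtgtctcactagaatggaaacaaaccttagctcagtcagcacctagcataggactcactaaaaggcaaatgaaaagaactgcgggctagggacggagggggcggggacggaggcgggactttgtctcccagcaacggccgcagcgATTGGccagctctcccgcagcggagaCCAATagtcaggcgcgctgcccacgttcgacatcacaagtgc
Mad2l1: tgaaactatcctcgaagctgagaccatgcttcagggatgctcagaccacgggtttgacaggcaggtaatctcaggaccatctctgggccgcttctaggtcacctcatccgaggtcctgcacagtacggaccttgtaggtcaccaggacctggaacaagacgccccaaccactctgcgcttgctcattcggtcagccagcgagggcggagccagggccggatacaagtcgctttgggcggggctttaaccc

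Across the 35 windows, 28 (80.0%) held CCAAT on either strand, against 37.9% of 27025 gene windows of the same length. That background takes 1 window for each gene with a promoter window and is not limited to the 12393 genes measured. TTTGAA was found in 25 windows (71.4%, against 18.1%) and TTTAAA in 7 (20.0%, against 13.2%). CCAAT together with TTTGAA or TTTAAA was found in 24 windows (68.6%, against 10.9%), while Anln, Birc5 and Kif2c, not printed, had TTTGAA or TTTAAA without CCAAT. For a gene with several windows the first listed was used, and some starts lie inside the gene. The Kif2c window covers chr4:117178773-117179022 (minus strand), while the gene spans 117159633 to 117182624. Motifs at other starts were not counted. Of the windows 18 (51.4%, against 12.2%) held CCAAT at least 2 times. Of 33 matches to TTTGAA, 23 lay within 50 bases of the start, in 22 members, and of 59 matches to CCAAT, 44 lay in the 150 bases before it, in 27 members. Positions were counted in the members only, so whether other genes place these motifs likewise was not tested. In Cdk1 the TTTGAA nearest the start began at base -15 and the CCAAT nearest to it, read as ATTGG, at base -48. In Cdc20 TTTGAA began at base -18, between CCAAT at -53 and at -8. In Ube2c TTTGAA, read as TTCAAA, began at -29, with 6 matches to CCAAT upstream of it. A CCAAT and an ATTGG of the Ube2c window share letters, the 1 overlapping pair among the members. In Bub3, whose level followed the other members least, TTTGAA and 2 CCAAT matches were present as well. These are matches of letters and not sites shown to be bound.

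The members fell into a common order over the 5 groups. Their mean on each array was 9.96 and 9.85 in ISC, 10.03 and 9.82 in Ent-Pro, 9.17 and 9.33 in DBZ Sec-Pro, 8.94 and 9.43 in Rbpj Sec-Pro, with 7.88 and 8.04 in ENT. ISC and Ent-Pro thus overlapped at the top, the Sec-Pro arrays lay between, and both ENT arrays were lowest. Of the 42 members, 24 had their highest group mean in Ent-Pro, 16 in ISC and 2, Bub3 and Cdc25b, in DBZ Sec-Pro. Over all genes the shares with their highest mean in these groups were 14.6%, 29.8% and 14.7%. The lowest group was ENT for 41 members, against 24.3% of all genes. The exception was Pttg1, securin, which keeps separase inactive until anaphase and was lowest in DBZ Sec-Pro.

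**Figure D1:**
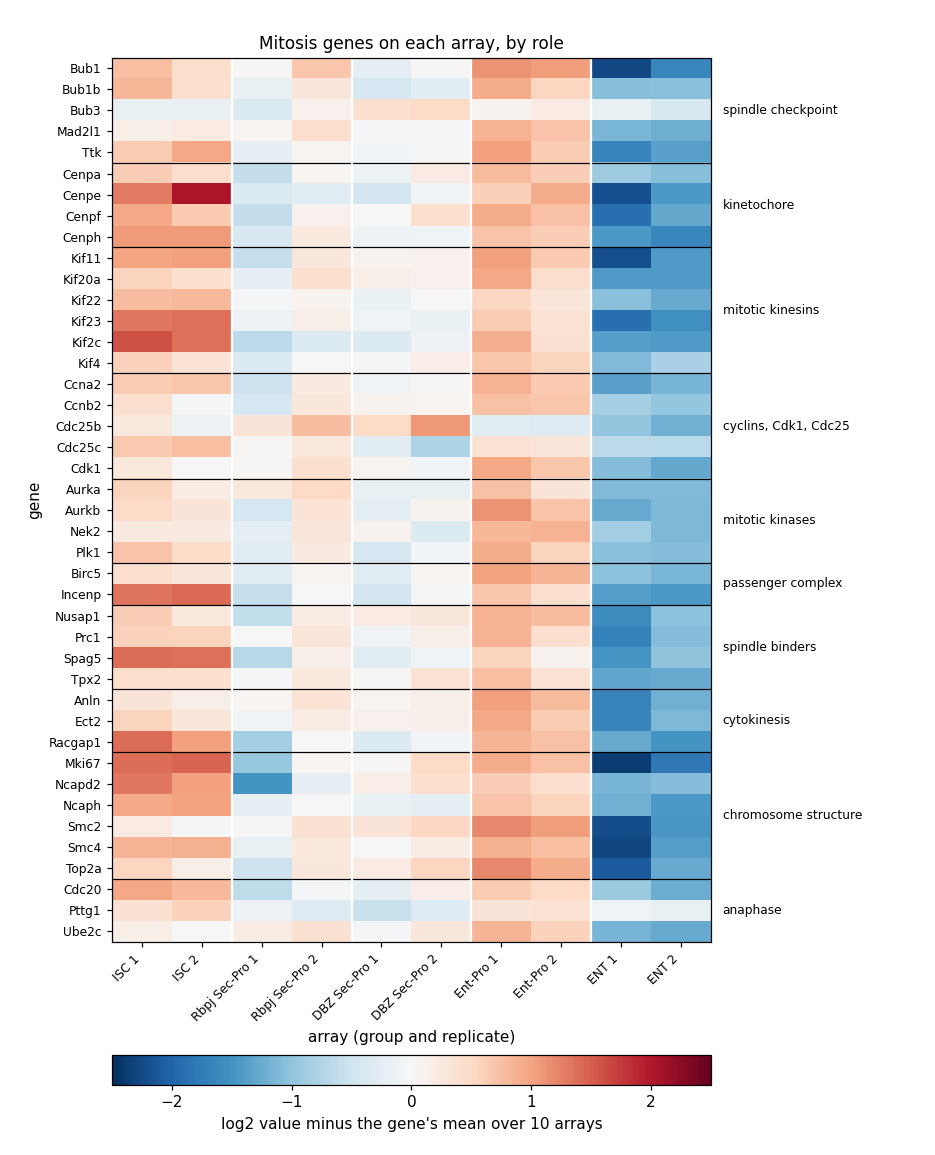
Log2 value of each of the 42 members (rows, grouped by role) on each of the 10 arrays (columns), less the gene's mean over the 10 arrays. Red is above and blue below that mean; ENT is blue for nearly all members, and the rows of Bub3, Cdc25b, Cdc25c and Pttg1 depart from the common pattern.

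The genes that start mitosis illustrate the order. Cdk1, the kinase itself, read 11.17 and 10.88 in Ent-Pro, 10.45 and 10.20 in ISC, 10.26 and 10.14 in DBZ Sec-Pro, 10.22 and 10.60 in Rbpj Sec-Pro, with 9.11 and 8.91 in ENT. Both Ent-Pro arrays were above and both ENT arrays below the other 6, which overlapped. Ccnb2, a B-type cyclin, read 10.84 and 10.78 in Ent-Pro, 10.49 and 10.07 in ISC, 10.19 and 10.16 in DBZ Sec-Pro, 9.67 and 10.39 in Rbpj Sec-Pro, with 9.27 and 9.13 in ENT. As for Cdk1, the Ent-Pro and ENT arrays stood apart from the rest. Ccna2, the A-type cyclin of S phase and early mitosis, read 11.51 and 11.29 in Ent-Pro, 11.28 and 11.34 in ISC, 10.54 and 10.67 in DBZ Sec-Pro, 10.12 and 10.87 in Rbpj Sec-Pro, with 9.29 and 9.48 in ENT. Its ISC and Ent-Pro arrays overlapped, and the Sec-Pro arrays all lay below them.

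Among the kinases, Aurka, which acts at spindle poles, read 9.28 and 8.86 in Ent-Pro, 9.09 and 8.72 in ISC, 8.35 on both DBZ Sec-Pro arrays, 8.80 and 9.04 in Rbpj Sec-Pro, with 7.44 on both ENT arrays. ISC, Rbpj Sec-Pro and Ent-Pro overlapped and DBZ Sec-Pro was below them. Aurkb, the kinase of the chromosomal passenger complex, read 9.86 and 9.44 in Ent-Pro, 9.21 and 9.04 in ISC, 8.51 and 8.82 in DBZ Sec-Pro, 8.28 and 9.06 in Rbpj Sec-Pro, with 7.46 and 7.60 in ENT. Plk1, Polo-like kinase, read 9.60 and 9.24 in Ent-Pro, 9.40 and 9.14 in ISC, 8.26 and 8.62 in DBZ Sec-Pro, 8.41 and 8.90 in Rbpj Sec-Pro, with 7.63 and 7.59 in ENT. Ent-Pro was highest for Aurkb with no overlap, whereas for Plk1 it overlapped ISC. Birc5 (survivin), a partner of Aurkb in the passenger complex, read 11.38 and 11.23 in Ent-Pro, 10.80 and 10.68 in ISC, 10.11 and 10.45 in DBZ Sec-Pro, 10.12 and 10.44 in Rbpj Sec-Pro, with 9.35 and 9.24 in ENT. For Birc5 the Sec-Pro groups overlapped each other and lay below ISC, which lay below Ent-Pro.

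At the checkpoint, Bub1 read 9.90 and 9.82 in Ent-Pro, 9.54 and 9.22 in ISC, 8.54 and 8.81 in DBZ Sec-Pro, 8.81 and 9.48 in Rbpj Sec-Pro, with 6.53 and 7.15 in ENT. Bub1b (BubR1) read 9.36 and 8.96 in Ent-Pro, 9.26 and 8.83 in ISC, 7.97 and 8.13 in DBZ Sec-Pro, 8.24 and 8.73 in Rbpj Sec-Pro, with 7.35 and 7.37 in ENT. Both kinase-related subunits were lowest in ENT and next lowest in DBZ Sec-Pro, and Bub1 in Ent-Pro was above every other array. Of the kinetochore genes, Cenpa, the centromeric histone, read 10.48 and 10.31 in Ent-Pro, 10.31 and 10.13 in ISC, 9.56 and 9.91 in DBZ Sec-Pro, 9.09 and 9.74 in Rbpj Sec-Pro, with 8.78 and 8.63 in ENT. Cenpf read 9.44 and 9.23 in Ent-Pro, 9.45 and 9.16 in ISC, 8.52 and 8.93 in DBZ Sec-Pro, 7.91 and 8.61 in Rbpj Sec-Pro, with 6.62 and 7.23 in ENT. For both, ISC and Ent-Pro were above all Sec-Pro arrays. Cenpe, the kinetochore motor, read 8.62 and 8.95 in Ent-Pro, 9.33 and 10.04 in ISC, 7.55 and 7.93 in DBZ Sec-Pro, 7.65 and 7.75 in Rbpj Sec-Pro, with 5.82 and 6.58 in ENT. Its ISC arrays were the highest and its ENT arrays the lowest, and each of these pairs was wider apart than the other 3.

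Kif11, the motor that pushes spindle poles apart, read 9.45 and 9.06 in Ent-Pro, 9.40 and 9.45 in ISC, 8.5 and 8.52 in DBZ Sec-Pro, 7.84 and 8.70 in Rbpj Sec-Pro, with 6.21 and 6.997 in ENT. Top2a, which untangles sister chromatids, read 11.81 and 11.54 in Ent-Pro, 11.15 and 10.75 in ISC, 10.82 and 11.14 in DBZ Sec-Pro, 10.10 and 10.90 in Rbpj Sec-Pro, with 8.53 and 9.34 in ENT. Mki67, which coats mitotic chromosomes and marks cycling cells, read 12.001 and 11.82 in Ent-Pro, 12.47 and 12.54 in ISC, 11.10 and 11.57 in DBZ Sec-Pro, 10.14 and 11.13 in Rbpj Sec-Pro, with 8.71 and 9.30 in ENT. Mki67 was highest in ISC and Top2a in Ent-Pro, both without overlap, and Kif11 was shared between those groups. Cdc20, which activates the anaphase promoting complex, read 11.73 and 11.60 in Ent-Pro, 12.07 and 11.91 in ISC, 10.88 and 11.26 in DBZ Sec-Pro, 10.46 and 11.06 in Rbpj Sec-Pro, with 10.16 and 9.85 in ENT. Ube2c, the ubiquitin-conjugating enzyme of that complex, read 12.16 and 11.87 in Ent-Pro, 11.44 and 11.31 in ISC, 11.27 and 11.59 in DBZ Sec-Pro, 11.48 and 11.69 in Rbpj Sec-Pro, with 10.14 and 10.04 in ENT. Pttg1 read 11.58 and 11.62 in Ent-Pro, 11.64 and 11.84 in ISC, 10.70 and 10.94 in DBZ Sec-Pro, 11.11 and 10.93 in Rbpj Sec-Pro, with 11.15 and 11.08 in ENT. On the brightest probe sets Cdc20 and Pttg1 were highest in ISC and Ube2c in Ent-Pro. Only for Pttg1, among these 3, did ENT overlap the Sec-Pro arrays. On its second probe set Pttg1 was highest in Ent-Pro, with 9.26 and 9.37, against 8.9 and 8.998 in ISC.

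**Figure D2:**
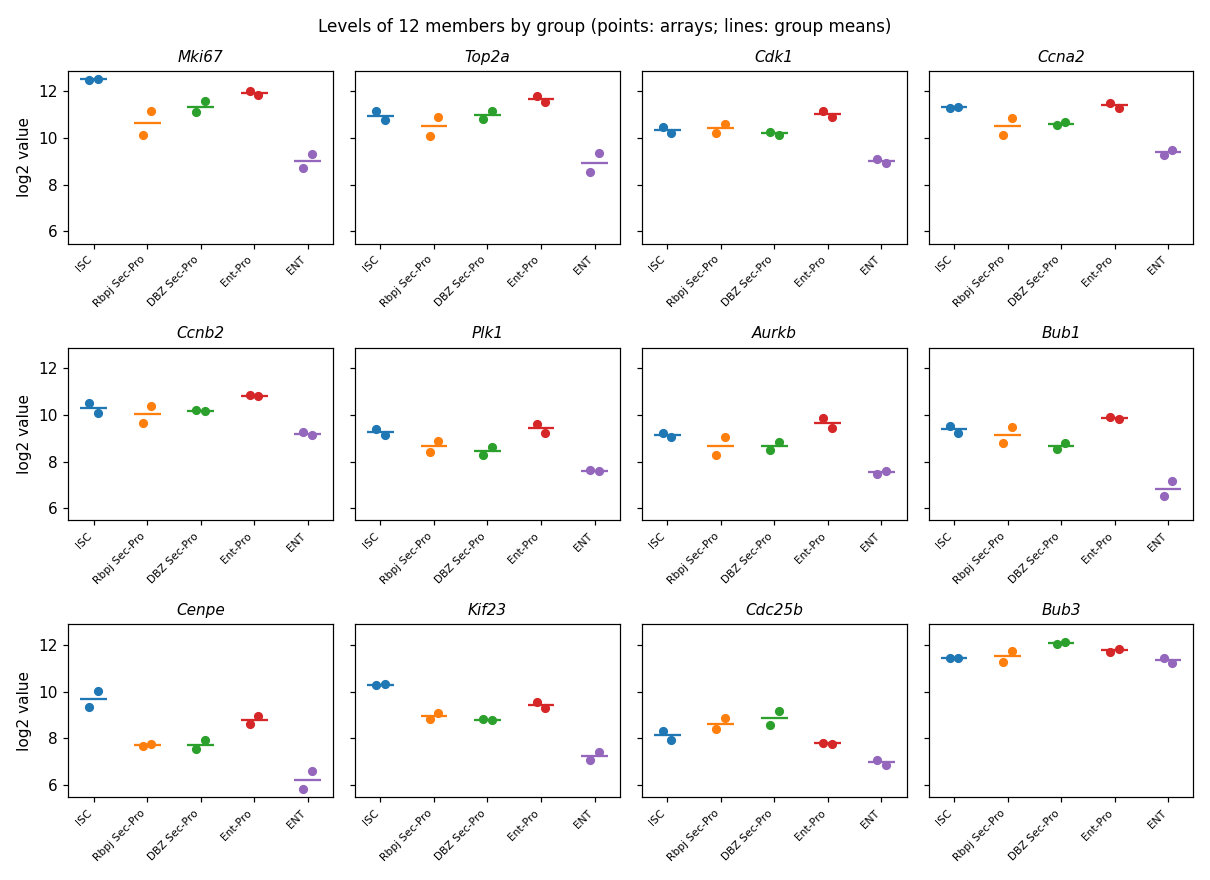
Log2 value (y axis, 1 scale for all panels) of 12 members in the 5 groups (x axis); each point is an array and each line the mean of the 2 arrays of a group. Most panels show ENT lowest, Mki67, Cenpe and Kif23 show ISC highest, Cdk1 and Ccnb2 show Ent-Pro highest, and Cdc25b and Bub3 are highest in DBZ Sec-Pro.

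Comparisons were made in limma with all 10 arrays in 1 model, and a gene was called at a Benjamini-Hochberg adjusted p under 0.05 over all 12393 genes. Villus enterocytes against crypt enterocyte progenitors, both from Atoh1-/- mice, asks how the genes differ between villus and crypt. Of the 42 members 41 fell in ENT and 0 rose, where 20.2% of all genes tested fell and 18.5% rose. No member was higher at an unadjusted p under 0.05 either. The median of the members was -2.01 (log2), against 0.02 over all genes. Both ENT arrays lay below both Ent-Pro arrays for all 42 members, and for 34.0% of all genes. The largest falls were those of Bub1 (-3.02 ± 0.26 SE, 8.11-fold, adjusted p = 7.1e-05), Smc2, a condensin subunit (-2.96 ± 0.24, adjusted p = 5.9e-05), and Mki67 (-2.90 ± 0.32, adjusted p = 0.00019). Apart from Bub3 the members of every role fell, with medians by role from -1.61 for the cyclins, Cdk1 and Cdc25 genes to -2.69 for the condensin, topoisomerase and chromosome surface genes. Top2a (-2.74), Kif11 (-2.65), Cenpe (-2.59), Cenpf (-2.41) and Cdk1 (-2.01) fell as well. So did Aurkb (-2.12), Ccna2 (-2.02), Birc5 (-2.01) and Ube2c (-1.92), with Plk1 (-1.81), Bub1b (-1.80), Cenpa (-1.69), Cdc20 (-1.66), Aurka (-1.63) and Ccnb2 (-1.61). These genes had an adjusted p of at most 0.00062, and their standard errors, Pttg1 included, were 0.14 to 0.32 in every comparison. The smallest called fall was that of Pttg1 (-0.48 ± 0.14, adjusted p = 0.021), and Bub3 was at -0.44 ± 0.16 (adjusted p = 0.061).

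ENT against ISC gave 41 members lower and 0 higher, where 26.8% of all genes tested were lower and 22.3% higher, and again no member was higher at an unadjusted p under 0.05. The median member difference was -1.91, against -0.01 over all genes. The largest falls were those of Mki67 (-3.50 ± 0.32 SE, 11.3-fold, adjusted p = 3.1e-05), Cenpe (-3.49 ± 0.30, 11.2-fold, adjusted p = 2.3e-05) and Kif23, a motor of the central spindle (-3.06 ± 0.16, adjusted p = 3.2e-06). Kif11 (-2.82), Bub1 (-2.54), Cenpf (-2.38), Top2a (-2.01), Cdc20 (-1.98) and Ccna2 (-1.92) fell too. Bub1b (-1.68), Plk1 (-1.66), Aurkb (-1.59), Cenpa (-1.51), Aurka (-1.47) and Birc5 (-1.44) fell as well, as did Cdk1 (-1.32), Ube2c (-1.28), Ccnb2 (-1.08) and Pttg1 (-0.62), with adjusted p of at most 0.0044. Bub3 differed by -0.10 ± 0.16 (adjusted p = 0.65). The comparison with Ent-Pro shares the ENT arrays, so its values and these are not independent. ENT also had 7 of 23 leukocyte markers called higher than in Ent-Pro and 12 higher than in ISC, and 10 of 12 enterocyte markers higher than in Ent-Pro and 12 higher than in ISC. Their part in the member differences was not tested.

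Enterocyte progenitors and stem cells, the 2 groups with the highest levels, differed in opposite directions from gene to gene. In Ent-Pro 6 members rose, against 12.1% of all genes tested, and 4 fell, against 13.5%; these shares of the members, 6 and 4 of 42, are near those backgrounds. Higher in Ent-Pro were Smc2 (1.04 ± 0.24 SE, 2.06-fold, adjusted p = 0.013), Cdk1 (0.70 ± 0.17, adjusted p = 0.018) and Anln, the cytokinetic ring protein anillin (0.68 ± 0.18, adjusted p = 0.024). Ube2c (0.63, adjusted p = 0.018), Mad2l1, the checkpoint inhibitor of Cdc20 (0.62, adjusted p = 0.014), and Birc5 (0.57, adjusted p = 0.031) rose too. Lower were Spag5, astrin of the spindle (-1.06 ± 0.27, adjusted p = 0.021), Kif23 (-0.86 ± 0.16, adjusted p = 0.0051), Kif2c, a microtubule-depolymerising kinesin (-0.84 ± 0.19, adjusted p = 0.013), and Incenp, the scaffold of the passenger complex (-0.84 ± 0.21, adjusted p = 0.019). Incenp and Birc5, partners in the passenger complex, were thus called in opposite directions, among counts that are near the background. Mki67 was at -0.59 (adjusted p = 0.23) and Top2a at 0.73 (adjusted p = 0.14), neither called. Arrays of the 2 groups did not overlap in 15 members higher in Ent-Pro, against 29.7% of all genes, and in 15 lower, against 34.0%; either count is 35.7% of the members.

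**Figure D3:**
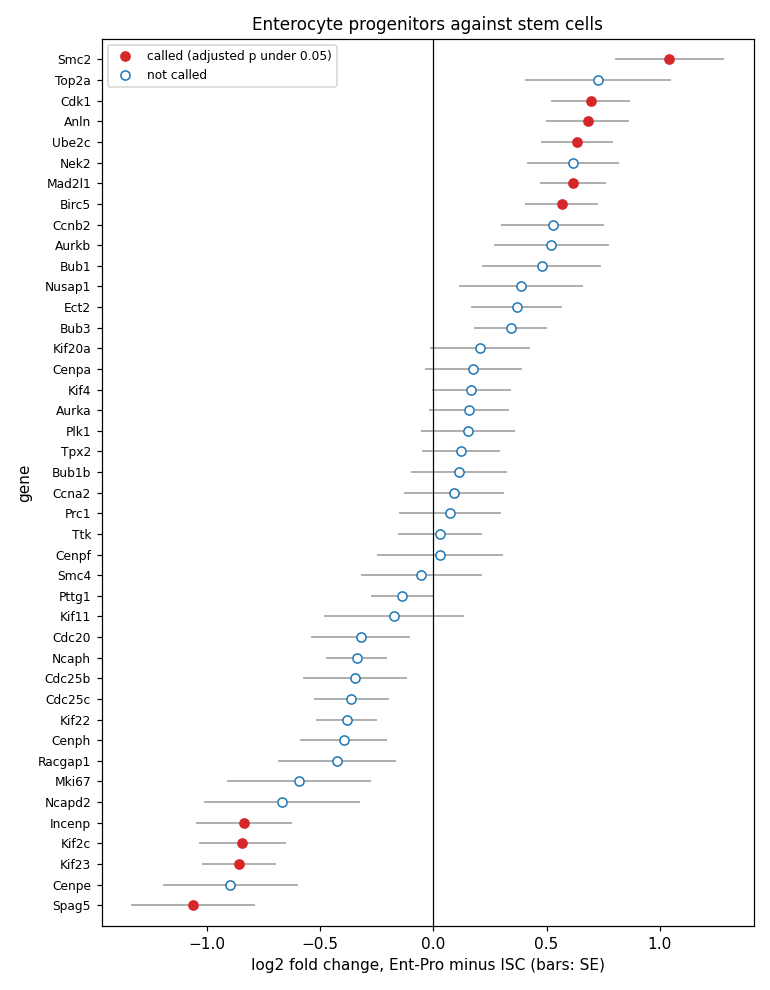
Log2 fold change of each of the 42 members in Ent-Pro against ISC (x axis), ordered by size, with bars of 1 standard error from limma. Filled red points passed an adjusted p of 0.05: 6 higher, from Birc5 to Smc2, and 4 lower, from Incenp to Spag5.

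The calls between Ent-Pro and ISC depended on the probe set and on single arrays. Counts over all genes also fell when an array of either group was left out. Of the 32 further probe sets of members with several, 20 had the sign of the brightest one, and 11 of those 20 members had a probe set of the other sign. Kif11 on its brightest probe set did not differ by call, and on the next read 7.85 and 7.83 in ISC and 9.07 and 8.58 in Ent-Pro, without overlap. Kif23 with its dimmest probe set was at -0.43 (adjusted p = 0.12). Kif2c rests on a probe set with the suffix _x_at, which marks probes that can also match other transcripts, and on the next it stood at -0.03 (adjusted p = 0.95). Incenp rests on an _x_at probe set as well, and its other probe sets stood at -0.45 and -0.2. With all _x_at probe sets set aside, a choice made after the data had been seen, 7 members were higher and 2 lower. Without ISC replicate 1 the counts were 2 higher and 2 lower, without ISC replicate 2 they were 0 and 2, without Ent-Pro replicate 1 they were 0 and 4, and without Ent-Pro replicate 2 they were 3 and 1. With only the 4 arrays of the 2 groups in the model, 8 were higher and 8 lower, where 1768 of all genes were higher and 2034 lower.

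**Figure D4:**
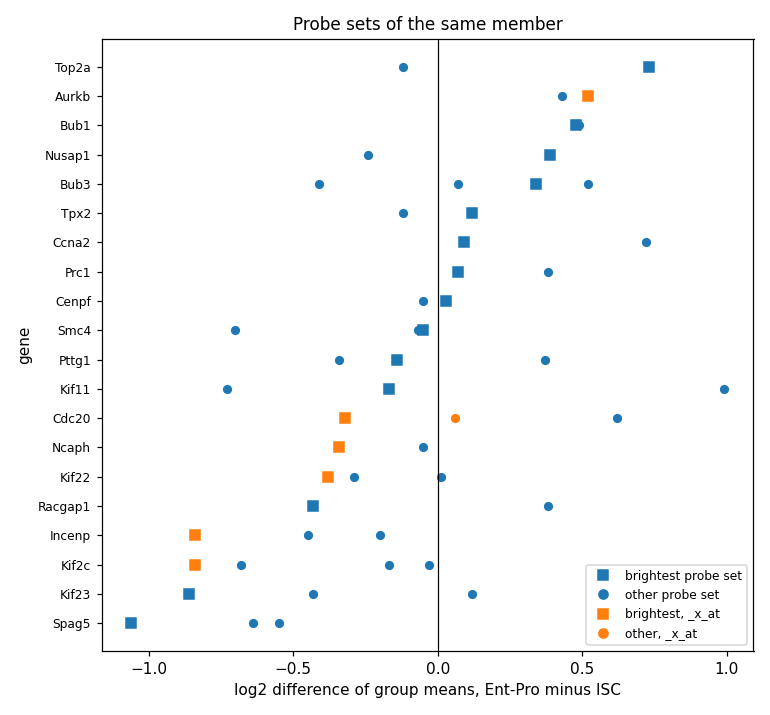
Log2 difference of the group means, Ent-Pro minus ISC (x axis), for each probe set of the 20 members that have several. Squares are the brightest probe sets, circles the others and orange those with the suffix _x_at; for 11 members the points fall on both sides of 0.

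In the secretory progenitors most members were below Ent-Pro. In Rbpj Sec-Pro 29 members fell and 1 rose against Ent-Pro, where 16.9% of all genes tested fell and 9.37% rose, and the median member difference was -0.77 against -0.12 over all genes. In DBZ Sec-Pro 24 fell and 1 rose, where 9.77% of all genes fell and 8.84% rose, and the median was -0.72 against -0.08. The arrays lay apart and lower for 38 of the 42 members (90.5%) in either comparison, against 45.3% of all genes in Rbpj Sec-Pro and 40.2% in DBZ Sec-Pro. Both comparisons use the same Ent-Pro arrays.

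Against Ent-Pro, the largest falls in Rbpj Sec-Pro were those of Ncapd2, a condensin subunit (-1.36 ± 0.34 SE, adjusted p = 0.023), Mki67 (-1.27 ± 0.32, adjusted p = 0.022) and Racgap1 of the central spindle (-1.22 ± 0.26, adjusted p = 0.013). In DBZ Sec-Pro they were those of Bub1 (-1.18 ± 0.26, adjusted p = 0.015), Bub1b (-1.11 ± 0.21, adjusted p = 0.0078) and Cenpe (-1.05 ± 0.30, adjusted p = 0.040). Cdk1 stood at -0.61 in Rbpj and -0.83 in DBZ Sec-Pro, Birc5 at -1.02 in each, Aurkb at -0.97 and -0.98, Plk1 at -0.77 and -0.98, and Ccna2 at -0.91 and -0.79, all called. Bub1b (-0.68), Cenpe (-1.09) and Pttg1 (-0.58) fell in Rbpj Sec-Pro as well, and Pttg1 also fell in DBZ Sec-Pro (-0.78). Cenpa (-0.98), Cenpf (-1.08), Kif11 (-0.98), Top2a (-1.18), Cdc20 (-0.91) and Ccnb2 (-0.78) were called lower in Rbpj Sec-Pro, while in DBZ Sec-Pro their values of -0.66, -0.61, -0.74, -0.70, -0.60 and -0.64 were not. Aurka (-0.72) and Ube2c (-0.59) were called lower in DBZ Sec-Pro, and their values of -0.15 and -0.43 in Rbpj Sec-Pro were not; no such difference between the Sec-Pro groups was itself called. Over the calls named in this comparison the adjusted p ran from 0.0044 to 0.047 in Rbpj and from 0.0032 to 0.040 in DBZ Sec-Pro. By role, the centromere and kinetochore, passenger complex and cytokinesis members all fell in Rbpj Sec-Pro, and the kinase, passenger complex and cytokinesis members all fell in DBZ Sec-Pro. The member that rose in both was Cdc25b, the phosphatase that activates cyclin-dependent kinases at entry into mitosis (0.84 ± 0.23, adjusted p = 0.029, and 1.08 ± 0.23, adjusted p = 0.012).

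The counts of falls against Ent-Pro depended on single arrays, over all genes as well as among the members. With only the 4 arrays of both groups, 320 of all genes were lower in Rbpj Sec-Pro, against 2094 in the full model. In Rbpj Sec-Pro 2 members were called lower without Ent-Pro replicate 1, 4 when Ent-Pro replicate 2 was left out, 6 without Rbpj Sec-Pro replicate 1 and 33 without Rbpj Sec-Pro replicate 2, and 2 with only the 4 arrays of both groups. In DBZ Sec-Pro the numbers lower were 3 without Ent-Pro replicate 1, 12 when Ent-Pro replicate 2 was left out, 8 without DBZ Sec-Pro replicate 1 and 11 without DBZ Sec-Pro replicate 2. The rise of Cdc25b was no longer called without either Ent-Pro array, nor without the second array of the Sec-Pro group concerned. The 2 Rbpj Sec-Pro arrays differed for the members as a group: 41 of 42 were higher on replicate 2, by a median of 0.46, while 51.7% of all genes were higher there. On replicate 1 the leukocyte marker mean was 8.33, the highest of all arrays, and the stem cell marker mean was 7.66, against 6.66 and 8.64 on replicate 2; the part of either in the member values was not tested. Against Ent-Pro 5 of 23 leukocyte markers were called higher in Rbpj Sec-Pro and 4 in DBZ Sec-Pro. Of 12 enterocyte markers 8 were called higher than in Ent-Pro in Rbpj Sec-Pro, with a median of 0.78, and 0 in DBZ Sec-Pro, with a median of -0.14 and 1 higher at an unadjusted p under 0.05. The part of these markers in the member differences was not tested. In Ent-Pro 4 members (9.5%) were higher on replicate 2, where 42.5% of all genes were, and in DBZ Sec-Pro 33 (78.6%), where 48.5% were. The counts were 15 (35.7%) in ISC and 22 (52.4%) in ENT, against 45.4% and 44.9% of all genes. With the dimmest probe set Kif11 (-0.21), Pttg1 (-0.19) and Racgap1 (-0.50) were not called in Rbpj Sec-Pro against Ent-Pro. Bub1b has 1 probe set and kept its values there. Its limma adjusted p of 0.051 in that fit differs only through the other genes.

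Against the sorted stem cells, the Sec-Pro groups also had lower levels of many members. In Rbpj Sec-Pro 23 members fell and 0 rose, where 29.4% of all genes tested fell and 17.7% rose, and none was higher at an unadjusted p under 0.05. The median of the members was -0.62 against -0.14 over all genes. In DBZ Sec-Pro 19 fell and 2 rose, where 20.3% of all genes fell and 15.9% rose, with a median of -0.64 against -0.09. In Rbpj Sec-Pro all 4 centromere and kinetochore members and 5 of 6 kinesins fell, and in DBZ Sec-Pro 2 of 4 and 4 of 6. Of the 5 cyclins, Cdk1 and Cdc25 phosphatases, 2 fell in each.

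The largest falls against ISC in Rbpj Sec-Pro were those of Ncapd2 (-2.03 ± 0.34 SE, 4.07-fold, adjusted p = 0.0015), Kif2c (-1.99 ± 0.19, adjusted p = 0.00011) and Cenpe (-1.98 ± 0.30, adjusted p = 0.00084). In DBZ Sec-Pro they were those of Cenpe (-1.95 ± 0.30, adjusted p = 0.0011), Kif2c (-1.73 ± 0.19, adjusted p = 0.00024) and Incenp (-1.63 ± 0.21, adjusted p = 0.00051). Falls in both were those of Mki67 (-1.87 in Rbpj and -1.17 in DBZ Sec-Pro), Kif11 (-1.15 and -0.92), Ccna2 (-0.82 and -0.70), Pttg1 (-0.72 and -0.92) and Plk1 (-0.61 and -0.83). These 5 had adjusted p from 0.0016 to 0.037 in Rbpj and from 0.0010 to 0.046 in DBZ Sec-Pro. Cenpf (-1.05), Cenpa (-0.80) and Birc5 (-0.46, adjusted p = 0.044) were called lower in Rbpj Sec-Pro alone of the Sec-Pro groups, with -0.58, -0.49 and -0.46 in DBZ. Bub1b (-0.99) and Aurka (-0.56) were called lower in DBZ Sec-Pro alone, with -0.56 and 0.01 in Rbpj. Cdk1 was at 0.08 (adjusted p = 0.72) and -0.13 (adjusted p = 0.60), and Ube2c, Smc2, Mad2l1, Anln, Ccnb2, Top2a, Nek2, Ect2 and Tpx2 were not called in either. Cdc25b (0.74 ± 0.23, adjusted p = 0.034) and Bub3 (0.65 ± 0.16, adjusted p = 0.014) rose in DBZ Sec-Pro. The call of Cdc25b was lost without ISC replicate 2, DBZ Sec-Pro replicate 2 or either Ent-Pro array, and that of Bub3 without either ISC array or DBZ Sec-Pro replicate 2.

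Several of these values depend on the probe set. Cdc20 on its brightest, _x_at, probe set fell in Rbpj (-1.23) and DBZ (-0.92) Sec-Pro, and without such probe sets it stood at 0.09 (adjusted p = 0.63) and -0.01 (adjusted p = 0.95). That other probe set read 10.53 and 10.28 in Ent-Pro, 9.89 and 9.67 in ISC, 9.76 and 9.77 in DBZ Sec-Pro, 9.74 and 10.01 in Rbpj Sec-Pro, with 8.80 and 8.69 in ENT, so that Ent-Pro was highest and ISC overlapped the Sec-Pro arrays. Kif2c without _x_at probe sets was at -0.43 (adjusted p = 0.19) and -0.66 (adjusted p = 0.075). Kif11 on its second probe set was at 0.21 in Rbpj and 0.24 in DBZ Sec-Pro, the other direction, and on its dimmest at -0.94 (adjusted p = 0.052) and -1.21 (adjusted p = 0.025). With the mean of its probe sets Kif11 was not called (adjusted p = 0.11 and 0.13). Ccna2 on its other probe set was at -0.17 (adjusted p = 0.47) and -0.29 (adjusted p = 0.26), and Bub3 in DBZ Sec-Pro with the mean of its probe sets was at 0.30 (adjusted p = 0.14). Pttg1 on its second probe set was at -0.09 in Rbpj and -0.48 in DBZ Sec-Pro, and on its dimmest at -0.53 and -1.2. Without ISC replicate 1 or without Rbpj Sec-Pro replicate 1, 14 members were lower in Rbpj Sec-Pro, and without ISC replicate 1, 12 were lower and 1 higher in DBZ Sec-Pro. Against ISC 12 of 23 leukocyte markers were called higher in Rbpj Sec-Pro and 9 in DBZ Sec-Pro, as were 12 and 11 of 12 enterocyte markers; ISC was sorted and these groups were not, so the sort and the cell state cannot be told apart.

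The 2 ways of blocking Notch differed in few members. In DBZ against Rbpj Sec-Pro 1 member rose and 1 fell, where 9.34% of all genes tested rose and 7.08% fell, and the median was 0.04 against 0.06. At an unadjusted p under 0.05 there were 2 higher and 2 lower. Bub3 was higher (0.58 ± 0.16 SE, adjusted p = 0.045) and Cdc25c, a mitotic phosphatase acting on Cdk1, lower (-0.68 ± 0.17, adjusted p = 0.029). Ncapd2 differed by 1.15 ± 0.34 (adjusted p = 0.053), with 8.94 and 9.18 in DBZ Sec-Pro against 7.26 and 8.56 in Rbpj Sec-Pro, and Aurka by -0.57 ± 0.18 (adjusted p = 0.060). A p above the threshold does not show that the other members had the same level. Without DBZ Sec-Pro replicate 2 or without either Ent-Pro array 0 members were called, without Rbpj Sec-Pro replicate 2 there were 5, and without any 1 of the other 6 arrays there was 1.

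Bub3, Cdc25b, Cdc25c and Pttg1 stood apart from the common pattern. Bub3, which carries the checkpoint kinases to kinetochores, read 11.72 and 11.84 in Ent-Pro, 11.44 and 11.43 in ISC, 12.03 and 12.13 in DBZ Sec-Pro, 11.27 and 11.74 in Rbpj Sec-Pro, with 11.43 and 11.23 in ENT. Its DBZ Sec-Pro arrays were above all others, and its Rbpj Sec-Pro arrays spanned those of ISC and overlapped those of ENT. Cdc25b read 7.81 and 7.77 in Ent-Pro, 8.32 and 7.94 in ISC, 8.58 and 9.16 in DBZ Sec-Pro, 8.39 and 8.86 in Rbpj Sec-Pro, with 7.09 and 6.88 in ENT, so the Sec-Pro arrays were the highest 4. Cdc25c read 6.56 and 6.51 in Ent-Pro, 6.85 and 6.95 in ISC, 5.91 and 5.43 in DBZ Sec-Pro, 6.23 and 6.47 in Rbpj Sec-Pro, with 5.56 and 5.53 in ENT. DBZ Sec-Pro and ENT overlapped at the bottom for Cdc25c, and for Pttg1 ENT overlapped the Sec-Pro arrays. The call of Bub3 in DBZ against Rbpj Sec-Pro held when Rbpj Sec-Pro replicate 2 was left out and was lost when any other array was. It was also lost with the mean of the probe sets (0.41, adjusted p = 0.084) and with the dimmest (0.48, adjusted p = 0.20). The same held with the replicate number as a block and with only the 2 groups compared in the model.

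Over the 10 arrays the members followed one another closely. The median of each member's Pearson correlations with the other 41 had a median of 0.91 over the members, while the same with all other genes had a median of 0.0. For 37 members it was over 0.8, and it was under 0.5 for 2, Bub3 (0.39) and Cdc25b (0.49). The arrays form 5 groups that share their level, so these correlations describe the group pattern. Among genes that are not members, those nearest to Mki67 were Aspm (0.992), Msantd2, Fkbp3 and Ndc80 (0.991 each) and Cbx5 (0.988). Those nearest to Cdk1 were Ipo5 (0.988), Hat1 (0.985), Ddx18 and Nup107 (0.978 each) and Cct6a (0.977). Aspm, a spindle pole protein, and Ndc80, the microtubule-binding kinetochore protein, are in the list of further mitosis genes described next.

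Other genes of the same pathways were read from lists drawn up by function. The shares of all genes called in each comparison, given above for the members, are the background for these lists too. Of 82 further mitosis genes, 67 fell and 4 rose in ENT against Ent-Pro, and 64 fell and 3 rose against ISC, with medians of -1.30 and -1.51. Fzr1 (Cdh1), which activates the anaphase promoting complex after mitosis and in resting cells, and Mad2l1bp, which helps to silence the checkpoint, were called higher in ENT against both crypt groups, Fzr1 by 0.56 and 1.04 and Mad2l1bp by 0.72 and 1.19. Cdc25a, another Cdc25 phosphatase, read 10.94 and 10.82 in ENT, 10.01 and 10.54 in Ent-Pro, and 10.14 and 10.35 in ISC. Anapc2 read 9.629 and 9.558 in ENT, 9.146 and 9.105 in Ent-Pro, and 9.75 and 9.558 in ISC. Against Ent-Pro 26 fell and 0 rose in Rbpj Sec-Pro, while 27 fell and 0 rose in DBZ Sec-Pro, with 2 and 1 higher at an unadjusted p under 0.05. Trip13, which disassembles checkpoint complexes, was called lower in both (-1.10 and -1.49), as was Plk4, the kinase of centriole duplication (-1.17 and -1.14). Against ISC 43 fell and 4 rose in Rbpj Sec-Pro, 36 fell and 5 rose in DBZ Sec-Pro, and 11 fell and 8 rose in Ent-Pro. The Ent-Pro counts, 11 and 8 of 82, are near the shares of all genes, 13.5% lower and 12.1% higher. In DBZ against Rbpj Sec-Pro 5 fell, among them Gtse1 (-1.03), and 1 rose, where 7.08% of all genes fell and 9.34% rose.

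A list of 45 DNA replication genes, which act in S phase, was read in the same way. In ENT 44 fell against Ent-Pro and all 45 against ISC, where 20.2% and 26.8% of all genes fell. Against Ent-Pro 39 fell in each Sec-Pro group, with medians of -0.82 in Rbpj and -0.90 in DBZ Sec-Pro. Of all genes 16.9% and 9.77% fell there. Rfc1, a subunit of the clamp loader, rose in DBZ Sec-Pro against Ent-Pro (0.87, adjusted p = 0.022), with 10.002 and 10.51 against 9.48 and 9.29. Tk1, thymidine kinase, read 10.34 and 9.90 in Ent-Pro, 9.82 and 9.53 in ISC, 8.65 and 8.499 in DBZ Sec-Pro, 8.27 and 9.24 in Rbpj Sec-Pro, with 8.06 and 8.10 in ENT. It fell against Ent-Pro in Rbpj (-1.37) and DBZ (-1.55) Sec-Pro. In Ent-Pro against ISC 7 replication genes rose, among them Ccne2 (1.44), Mcm4 (1.03) and Pcna (0.87), and 4 fell. These counts, 7 and 4 of 45, are near the shares of all genes, 12.1% and 13.5%. Against ISC 29 fell in Rbpj and 31 in DBZ Sec-Pro, where 29.4% and 20.3% of all genes fell. In DBZ against Rbpj Sec-Pro 1 rose and 2 fell, where 9.34% of all genes rose and 7.08% fell.

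**Figure D5:**
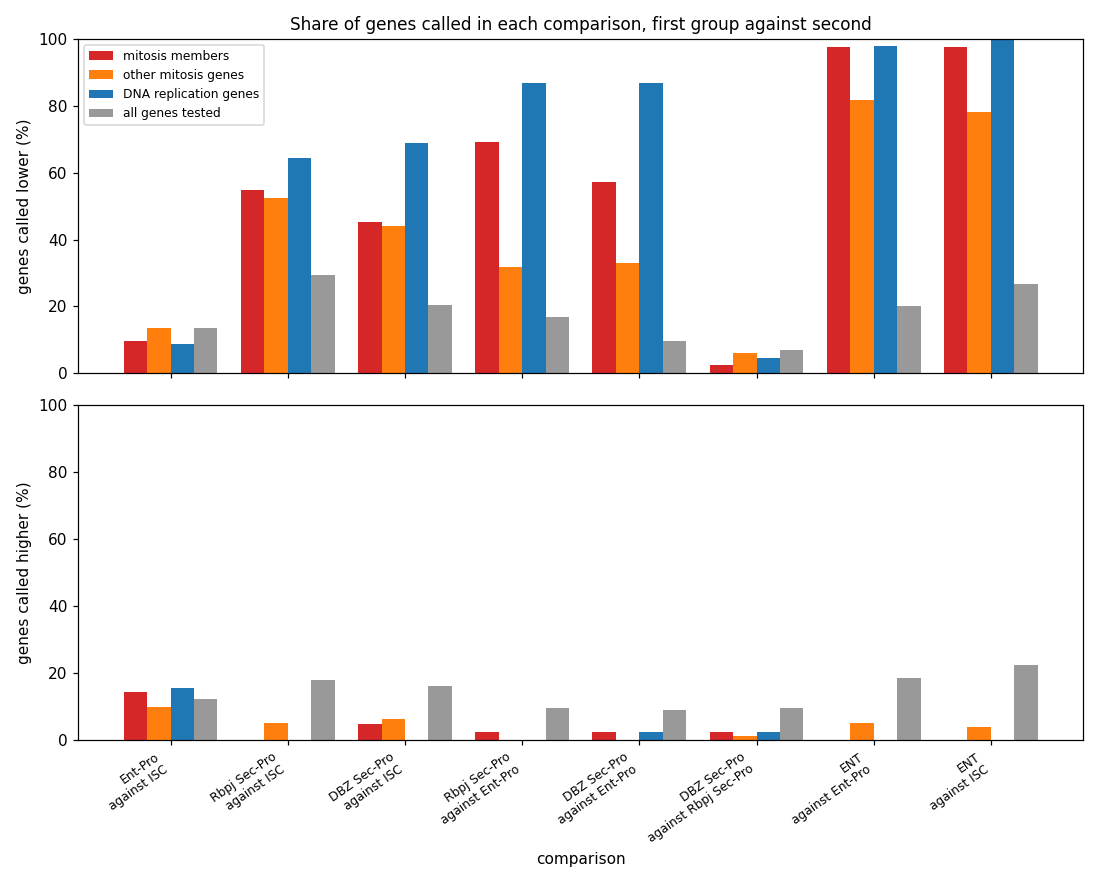
Share of genes called lower (top) and higher (bottom) in each comparison (x axis), in percent (y axis), for the 42 members, 82 other mitosis genes, 45 DNA replication genes and all 12393 genes tested. For the members, the other mitosis genes and the DNA replication genes, the shares called lower are highest in the ENT comparisons. For all genes that share is highest in Rbpj Sec-Pro against ISC (29.4%). In Ent-Pro against ISC all 4 groups of bars lie below 20%.

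Of 17 transcription factors and partners that act on late cell cycle genes, 8 fell and 2 rose in ENT against Ent-Pro, and 10 fell and 2 rose against ISC. E2f8, a repressor of the E2F family, fell in both Sec-Pro groups against Ent-Pro (-1.39 in Rbpj and -1.34 in DBZ) and against ISC (-1.07 and -1.03), and in ENT against Ent-Pro (-1.87). Lin9, a MuvB subunit, fell in ENT against Ent-Pro (-2.26) and ISC (-2.09), and Rb1, the retinoblastoma protein, rose by 1.15 and 2.14. Mybl2 (B-Myb), which joins MuvB at late cell cycle promoters, read 6.99 and 7.13 in Ent-Pro, 6.78 and 7.13 in ISC, 6.14 and 6.18 in DBZ Sec-Pro, 6.96 and 7.10 in Rbpj Sec-Pro, with 6.16 and 6.22 in ENT. It was low on the DBZ Sec-Pro and ENT arrays and was lower in DBZ than in Rbpj Sec-Pro (-0.86, adjusted p = 0.0080). Foxm1, the forkhead activator of mitotic genes, read 7.34 and 7.17 in Ent-Pro, 7.30 and 7.44 in ISC, 6.64 and 6.69 in DBZ Sec-Pro, 6.85 and 7.13 in Rbpj Sec-Pro, with 7.28 and 7.18 in ENT. Its ENT values thus lay beside those of Ent-Pro (-0.03, adjusted p = 0.90), where 41 of the 42 members fell. For this list 5 genes fell and 0 rose against Ent-Pro in each Sec-Pro group, with 2 higher in Rbpj and 0 in DBZ Sec-Pro at an unadjusted p under 0.05. Against ISC 7 fell and 2 rose in each, 4 rose and 3 fell in Ent-Pro, and in DBZ against Rbpj Sec-Pro Mybl2 was the 1 gene called. Of all genes 12.1% rose and 13.5% fell in Ent-Pro against ISC. In ENT 20.2% of all genes fell and 18.5% rose against Ent-Pro, and 26.8% and 22.3% against ISC. In Rbpj Sec-Pro 16.9% fell and 9.37% rose against Ent-Pro, and 29.4% and 17.7% against ISC. In DBZ Sec-Pro these shares of all genes were 9.77% and 8.84%, and 20.3% and 15.9%.

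Among 12 D cyclins, their kinases and inhibitors, Cdkn1a (p21), an inhibitor of cyclin-dependent kinases, read 10.01 and 9.92 in Ent-Pro, 9.97 and 9.88 in ISC, 11.24 and 11.43 in DBZ Sec-Pro, 12.50 and 11.26 in Rbpj Sec-Pro, with 12.16 and 12.10 in ENT. ISC and Ent-Pro, the groups with the highest member levels, had the lowest Cdkn1a, and the other groups lay above them without overlap. Other inhibitors had other orders. Cdkn2b (p15) read 9.09 and 8.77 in Ent-Pro, within the Sec-Pro range of 8.57 to 9.42, against 6.74 and 6.60 in ISC (2.26 higher in Ent-Pro, adjusted p = 0.00046). Cdkn1b (p27) read 10.69 and 10.59 in ISC, among its highest values, and 9.94 and 10.17 in Ent-Pro. Cdkn1a rose against Ent-Pro by 1.92 in Rbpj Sec-Pro (adjusted p = 0.0055), 1.37 in DBZ Sec-Pro (adjusted p = 0.018) and 2.17 in ENT (adjusted p = 0.00077). Cdkn1c (p57) rose against Ent-Pro by 2.31 in Rbpj Sec-Pro (adjusted p = 0.0013), 3.10 in DBZ Sec-Pro (adjusted p = 0.00014) and 1.91 in ENT (adjusted p = 0.00065). Ccnd1, a D cyclin that starts the cycle, fell in ENT against Ent-Pro (-2.64) and ISC (-2.30). Over the list 3 rose and 3 fell in ENT against Ent-Pro, 2 rose and 4 fell against ISC, and 1 rose and 1 fell in Ent-Pro against ISC. Of all genes 18.5% rose and 20.2% fell, 22.3% and 26.8%, and 12.1% and 13.5% in these comparisons. Counts out of 12 genes are near such shares. In Rbpj Sec-Pro 3 rose and 3 fell against ISC and 2 rose and 1 fell against Ent-Pro; in DBZ Sec-Pro these counts were 3 and 1, and 2 and 0, with 2 lower against Ent-Pro at an unadjusted p under 0.05. Of all genes 17.7% rose and 29.4% fell in Rbpj Sec-Pro against ISC, and 9.37% and 16.9% against Ent-Pro. For DBZ Sec-Pro these shares were 15.9% and 20.3%, and 8.84% and 9.77%. In DBZ against Rbpj Sec-Pro Cdkn1b (p27) rose by 1.46.

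The split of all genes into higher and lower depended on the scaling. With each array centred on its median, the median over all genes in ENT against ISC was 0.24, in place of -0.01, and 4388 genes were higher and 2593 lower, in place of 2769 and 3325; 40 members were still lower. Centring also gave 2974 higher and 2128 lower in ENT against Ent-Pro (2291 and 2501 as deposited), 1905 and 1277 in Ent-Pro against ISC (1498 and 1667), and 974 and 1682 in DBZ Sec-Pro against Ent-Pro (1096 and 1211), where cyclic loess gave 1290 and 958, the other balance. Cyclic loess gave 1540 higher and 1329 lower in Rbpj Sec-Pro against Ent-Pro (1161 and 2094 as deposited), 2888 and 2659 against ISC (2191 and 3641), and 2393 and 1980 in DBZ Sec-Pro against ISC (1971 and 2512). Member counts under loess were 1 higher and 23 lower in Rbpj Sec-Pro against Ent-Pro, 1 and 19 against ISC, and 2 and 19 in DBZ Sec-Pro against ISC.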

How the data were processed

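The values are log2 intensities, as the authors deposited them, of 22690 probe sets on 10 Affymetrix mouse 430A 2.0 arrays (2.90 to 15.18). RMA and MAS5 are named in the submitters' processing notes, without roles or versions. Of the probe sets 20393 named 1 gene in the platform annotation, 691 several and 1606 none. Group means were fitted to all 10 arrays with limma 3.58.1 (lmFit and eBayes, R 4.3.3), with Benjamini-Hochberg adjustment over 12393 genes, after the fit had been tested on simulated data. The number of arrays limits the precision. Any measured member could be named. Values on every array were set for 18 well-known members, and changes for those called among them and the 3 called members with the largest change in each direction. Array values of Bub3, Cdc25b, Cdc25c and Ncapd2, the changes of Mad2l1 and Incenp in Ent-Pro against ISC, and the other-list genes were chosen after their values were seen; for some calls only ranges of the error and adjusted p are given. Members, lists and this rule were chosen with earlier results of these data known. Other scalings, probe set rules, models and left-out arrays were tried. Replicate numbers were not taken as pairs, since deviations of same-numbered arrays correlated from -0.192 to 0.174.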

Additional observations from a re-analysis of the deposited data

Results flagged for a closer look

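The change against ISC differed between DBZ and Rbpj Sec-Pro for 2 members, by the limma test of the difference itself, which is the comparison of the Sec-Pro groups. Of all genes tested 9.34% were higher and 7.08% lower there, so 1 member each way of 42 is below those shares. For Bub3 the difference was 0.58 (log2; adjusted p = 0.045), with a change against ISC of 0.65 in DBZ and 0.07 in Rbpj Sec-Pro. For Cdc25c it was -0.68 (adjusted p = 0.029), with -1.23 in DBZ and -0.55 in Rbpj Sec-Pro. Both DBZ Sec-Pro arrays lay above both Rbpj Sec-Pro arrays for Bub3 and below them for Cdc25c. With only these 2 groups in the model neither call was kept. The call of Cdc25c was lost without DBZ Sec-Pro replicate 2 (adjusted p = 0.16), without Rbpj Sec-Pro replicate 2 (0.074) and without either Ent-Pro array (0.051).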

How the results depend on the processing

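With 1 array left out at a time, members called ranged from 2 to 14 in Ent-Pro against ISC, 14 to 28 in Rbpj Sec-Pro against ISC, 13 to 26 in DBZ Sec-Pro against ISC, 2 to 33 in Rbpj Sec-Pro against Ent-Pro, 3 to 30 in DBZ Sec-Pro against Ent-Pro and 0 to 5 in DBZ against Rbpj Sec-Pro. ENT gave 39 to 42 against Ent-Pro and 41 in every case against ISC. Leaving out an array of a compared group leaves 1 sample there, assumed to vary like the other groups. With only the compared groups in the model the calls were 16 in Ent-Pro against ISC, 2 in Rbpj Sec-Pro against Ent-Pro and 0 in DBZ against Rbpj Sec-Pro; over all genes that model gave 385 higher and 320 lower, and 43 and 54, in the last 2 of these (1161 and 2094, and 1158 and 878, as reported). In DBZ against Rbpj Sec-Pro, centring gave 4 members. With the replicate number as a block the members called were 11, 21, 22, 29, 22, 1, 41 and 41 in the order Ent-Pro, Rbpj and DBZ Sec-Pro against ISC, Rbpj and DBZ Sec-Pro against Ent-Pro, DBZ against Rbpj Sec-Pro, and ENT against Ent-Pro and against ISC. Fewer genes enter the fit with genes above the median level, which gave 767 higher and 1375 lower genes in Rbpj Sec-Pro against Ent-Pro, 1677 and 2182 in Rbpj Sec-Pro against ISC, and 644 and 523 in DBZ against Rbpj Sec-Pro. Over all genes, leaving out 1 array gave as few as 406 higher and 418 lower in Rbpj Sec-Pro against Ent-Pro, 622 and 423 in DBZ Sec-Pro against Ent-Pro, 843 and 861 in Ent-Pro against ISC, and 199 and 164 in DBZ against Rbpj Sec-Pro.

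Of 1956 values of 103 named gene results under alternatives, 1697 kept direction and side of the threshold, 254 lost the call and 5 reversed. Of the 103 results, 43 kept both under every alternative. Most of the lost calls lay in comparisons among the crypt groups, and few in those with ENT. Many alternatives left out an array of a group not compared, which leaves the fold change as it was, so the pooled share overstates stability. Cdc20 in Rbpj Sec-Pro against ISC was 0.092 without _x_at probe sets, an alternative chosen after seeing the data. With the dimmest probe set, Bub3 in DBZ Sec-Pro against ISC was -0.213, and Top2a was 0.059 in Rbpj Sec-Pro against Ent-Pro, 0.217 in ENT against Ent-Pro and 0.099 in ENT against ISC. That Top2a probe set read 3.66 to 4.24 on all arrays, at the level of the absent control (up to 4.05), so these 3 values compare readings at background level. For Cdc20 and Bub3 the cause was not tested.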
